A study of Homo sapiens with 18 samples.

Results

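The transcriptomes of HCT116 cells that carried an antisense vector or an empty control vector were compared in the presence of the hnRNPK construct in both groups. HCT116 cells are an established line from a human colorectal carcinoma. The comparison used 3 libraries named Antisense_hnRNPK and 3 libraries named Ctrl_hnRNPK, which are 6 of the 18 libraries of the series, and every gene that passed a filter on low counts, which are 14853 of 31004 genes in the count table. The members were set by these library names alone. The study concerns the long noncoding RNA CRLM1 in colorectal cancer, and it combined 3 backgrounds (empty, antisense and CRLM1) with the hnRNPK construct or with NC, the negative control of that construct. Antisense_hnRNPK cells carried the antisense control background together with the construct meant to overexpress HNRNPK. Ctrl_hnRNPK cells carried the empty control background together with the same construct. Antisense_NC and Ctrl_NC, with 3 libraries each, carried the same backgrounds without the construct and share no library with the comparison. The labels place the HNRNPK cDNA in the pTSB vector, whereas the methods of the study name another vector for it. Whether a background was a clone or a pool of cells was not given in the sources used here. The labels do not say that replicates were separate cultures, so p-values measure the spread between these libraries, which may be technical.

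hnRNPK is a nucleic acid binding protein that recognises C-rich sequences and takes part in transcription, splicing and mRNA stability. An antisense vector expresses the reverse complement of a transcript and serves as a control of matched length for a sense vector. Programmes described in the following paragraphs include the amino acid response driven by the transcription factor ATF4, the heat shock response driven by HSF1, sterol synthesis driven by SREBP2, and the immediate early genes that follow growth factor signalling.

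Total counts ran from 22089254 to 24457199 in the 6 libraries. Levels are given as CPM, which are counts scaled to a library size common to all libraries by TMM, and compare a gene between libraries but not genes of different length with each other. Ctrl_hnRNPK replicate 3 stood apart from its group and is therefore always given by name or as the last of the 3 Ctrl_hnRNPK values. Its log2 levels correlated across genes at 0.949 to 0.956 with its own replicates and at 0.988 to 0.989 with the Ctrl_NC libraries, while Ctrl_hnRNPK replicates 1 and 2 correlated with each other at 0.991. Mitochondrial genes took 3.88% of its counts, against 5.52% and 5.36% in replicates 1 and 2 and 5.13% to 7.0% in Antisense_hnRNPK. No pair of replicates agreed within sampling noise, with a chi-square per degree of freedom of 11.1 to 36.7 among the other pairs and of 125 and 146 for the pairs with this library. All 6 libraries entered the fit, and the counts over gene groups are also given from a fit without Ctrl_hnRNPK replicate 3, which compared 3 libraries with 2. The study left this library out of its own comparisons because of its profile. It left out CRLM1_hnRNPK replicate 3, which is not part of this comparison, for the same reason. The epithelial markers EPCAM, KRT8, KRT18, KRT19 and CDH1 were expressed in every library, whereas CEACAM5, LGALS4, KRT20, VIL1 and CDH17, markers of differentiated colon cells, were under 1 CPM in all 6, with CEACAM5 and LGALS4 at 0 in every library but 1 Antisense_hnRNPK library each. The 11 colon epithelial markers in the table summed to 3498 to 3617 CPM in Antisense_hnRNPK and to 4652 to 7627 CPM in Ctrl_hnRNPK, the highest sum being that of replicate 3. Of the 6 markers tested, 0 were called higher and 1 lower, and 2 and 0 of 7 without replicate 3. The share called with all libraries was 16.7%, beside 22.9% of all genes. All libraries are labelled HCT116, so these and the following sums describe RNA levels in a single line. In bulk RNA, fewer cells that express a marker and less RNA per cell cannot be told apart. The fibroblast markers summed to 11.5 to 15.5 CPM in Antisense_hnRNPK and 15.4 to 25.5 CPM in Ctrl_hnRNPK, nearly all of it COL1A1, with 4 of the 7 in the table at 0 in all 6 libraries. The leukocyte markers summed to 1.60 to 1.85 CPM and 2.20 to 5.59 CPM, and the endothelial markers to 0.227 to 0.292 CPM and 0.216 to 0.727 CPM. The part of these differences in the results was not tested.

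HNRNPK, the gene of the construct (chromosome 9, 83968083 to 83980631), did not separate the groups. It measured 540.1, 532 and 583 CPM in Antisense_hnRNPK and 617, 644 and 491 CPM in Ctrl_hnRNPK. The lowest of the 6 values was that of Ctrl_hnRNPK replicate 3, and the groups overlapped because of it. Its fitted log2 difference was -0.13 with an SE of 0.20 (adjusted p = 0.627), and -0.22 without replicate 3 (adjusted p = 0.115). In the libraries without the construct the means were 430.3 CPM in Antisense_NC and 471 CPM in Ctrl_NC, whose 3 libraries ran from 463 to 479.7 CPM, so that Ctrl_hnRNPK replicate 3 lay close above them. Of the poly(C)-binding paralogs PCBP1 to PCBP4, none was called in either fit.

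LINC01767, the gene of CRLM1, listed in the tables under its older name RP4-710M16.2, was the gene with the largest difference. It lies at chromosome 1, 56414918 to 56417137, on the plus strand. It measured 42.5, 45.2 and 39.1 CPM in Antisense_hnRNPK, and all 3 Ctrl_hnRNPK libraries were at 0 counts. Taken against the floor of 3 counts over the group, which is the limit that a count of 0 allows, the level was at least 958-fold higher (adjusted p = 4.85e-07), or at least 677-fold without replicate 3 (adjusted p = 1.57e-10). The strand used for counting is not given in the sources used here, so reads of the antisense vector and of the gene cannot be told apart. Its neighbour PLPP3, listed as PPAP2B, a lipid phosphate phosphatase, measured 5.19, 3.89 and 5.42 CPM and 5.14, 5.13 and 6.699 CPM in the same order of groups, with overlap and a log2 fold change of -0.27 (adjusted p = 0.395).

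A gene was called when its adjusted p was at most 0.05 and it differed at least 2-fold. In all, 3403 of the 14853 genes (22.9%) passed, with 1753 (11.8%) at a higher and 1650 (11.1%) at a lower level in Antisense_hnRNPK. Without Ctrl_hnRNPK replicate 3, 3347 of 15313 genes (21.9%) were called, 1800 (11.8%) higher and 1547 (10.1%) lower. Both fits called 2657 genes in the same direction, 78.1% of the first set and 79.4% of the second, and 0 in opposite directions. On FPKM in place of counts with a pseudocount of 1, 1634 were called higher and 244 lower, which moved the share of higher calls from 51.5% to 87.0% and the median log2 fold change of all genes from -0.03 to 0.21. That fit used limma and FPKM scaled to library size without TMM. In every FPKM count or median given here, the changes of unit, test and scaling were not told apart. Numbers of higher and lower genes in the text are on the count scale unless FPKM is named. A gene given as called was called in both fits unless the text says otherwise. The log2 fold changes also followed the GC content of the genes, with Spearman's correlations across genes of -0.445 with all libraries and -0.247 without replicate 3, and removal of each library's trend on GC content and length left 2505 calls. Relative to the Ctrl_NC mean, the correlation with GC content was -0.656 to -0.575 in the Antisense_hnRNPK libraries, -0.746 and -0.702 in Ctrl_hnRNPK replicates 1 and 2, and 0.136 in replicate 3. The part of GC content in the results was not tested beyond this removal. Among gene types, 13.1% of protein-coding genes were called higher and 9.35% lower. Several noncoding types had more lower calls. Genes annotated as antisense transcripts were higher in 4.23% and lower in 16.8%, and long intergenic noncoding RNAs in 6.9% and 18.4%. Mitochondrial tRNAs went the other way, with 2 of 10 called higher and 0 lower.

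ATF4 targets had the highest median of the groups in the plot of gene groups. This response raises amino acid synthesis, amino acid transport and stress regulators when amino acids are scarce or the endoplasmic reticulum is stressed. Of 36 tested members, 23 were called higher and 2 lower (11.8% and 11.1% of all genes), with a median log2 fold change of 1.495 against -0.03 over all genes. Without replicate 3 the counts were 23 and 0 (11.8% and 10.1% of all genes) and the median was 1.61. Over all settings tried the median lay between 1.35 and 1.92.

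The stress regulators of the group come first. CHAC1, an enzyme that degrades glutathione, measured 59.5, 61.5 and 54.3 CPM in Antisense_hnRNPK and 0.389, 0.121 and 0.907 CPM in Ctrl_hnRNPK. The groups lay far apart, with a log2 fold change of 6.96 (SE 0.42, adjusted p = 2.83e-06) that became 7.81 without replicate 3. TRIB3, a pseudokinase that restrains the response, measured 199, 242 and 152 CPM and 7.13, 5.86 and 18.5 CPM, the last value being more than that of either other empty vector library (log2 fold change 4.21, adjusted p = 2.56e-05). ATF4 itself measured 427, 478 and 421 CPM and 200.1, 163 and 219.5 CPM, so its RNA was called higher as well (log2 fold change 1.15, adjusted p = 0.00101). DDIT3, which encodes the transcription factor CHOP, differed by 1.77 and CEBPG, a partner of ATF4, by 2.97, both in the same direction and with no overlap. SESN2, a leucine sensor that restrains mTORC1, measured 278, 263 and 238 CPM and 29.4, 20.04 and 62.5 CPM.

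Many amino acid enzymes and carriers were called higher as well. ASNS, which makes asparagine, measured 598, 846 and 493 CPM against 39.4, 44.1 and 33.1 CPM, and the lowest antisense library was still far above the highest empty vector library (log2 fold change 4.01, adjusted p = 4.07e-06). SLC7A11, the cystine carrier, measured 191, 273 and 168 CPM against 10.9, 9.13 and 6.598 CPM (log2 fold change 4.52, adjusted p = 4.07e-06). In both genes Antisense_hnRNPK replicate 2 was the highest library. PSAT1 and PHGDH of serine synthesis were called higher, with log2 fold changes of 2.699 and 1.49. SLC7A5, a carrier of large neutral amino acids, measured 1222, 1285 and 1122 CPM against 181, 157 and 367 CPM, with Ctrl_hnRNPK replicate 3 at the upper end of its group. Members such as GDF15, a stress cytokine, at a log2 fold change of -0.09, SHMT2, a mitochondrial serine enzyme, at 0.13 and STC2, a secreted glycoprotein, at 0.12 did not pass the test. The 2 members called lower were ATF3, a stress-induced repressor, at -1.11, and CEBPB, a bZIP factor, at -1.03. Neither was called without replicate 3, where their log2 fold changes were -0.99 and -0.70.

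**Figure D1:**
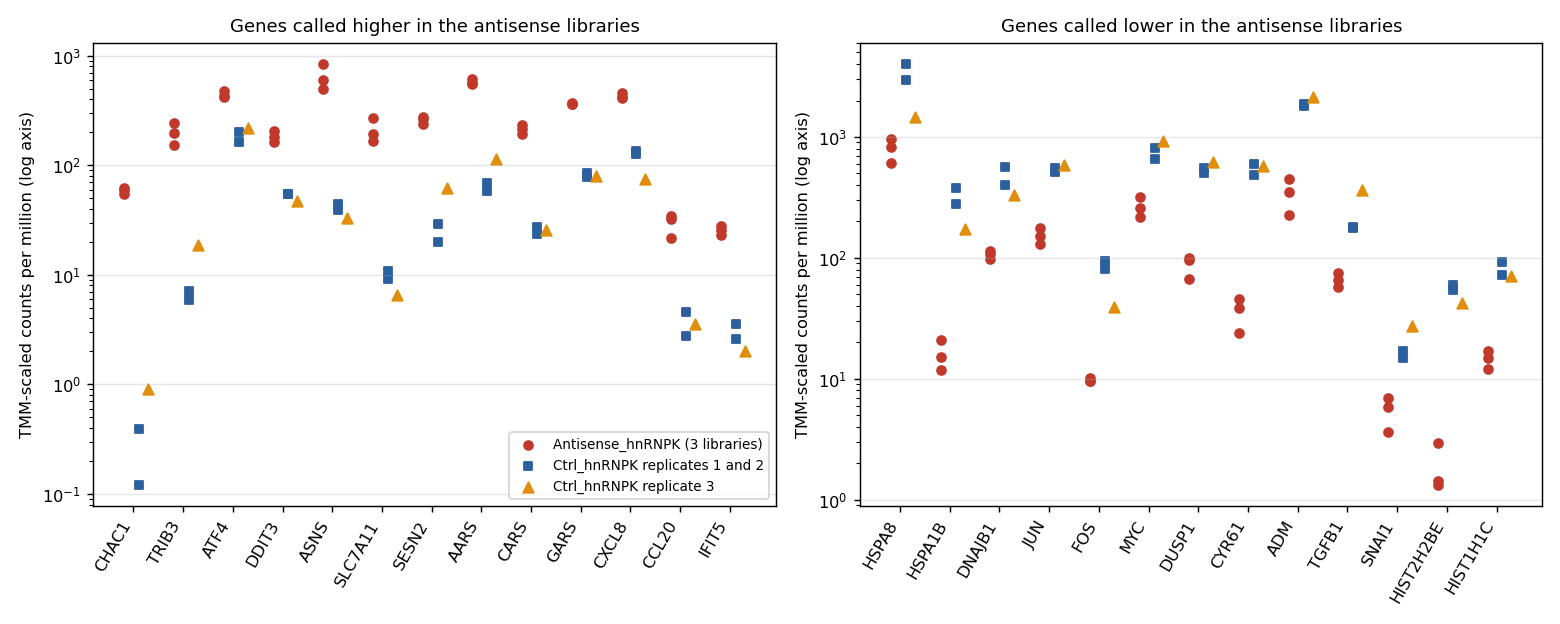
TMM-scaled CPM on a log axis for 26 genes, with 1 point per library: circles for the 3 Antisense_hnRNPK libraries, squares for Ctrl_hnRNPK replicates 1 and 2 and a triangle for Ctrl_hnRNPK replicate 3. The left panel holds genes called higher, such as CHAC1 with 54.3 to 61.5 CPM against less than 1 CPM, and the right panel genes called lower, where the triangle often lies away from the squares.

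Cytosolic aminoacyl-tRNA synthetases, which load amino acids onto tRNAs and many of which are known ATF4 targets, were called higher in 12 of 20 cases and lower in 0, with a median log2 fold change of 1.23. Without replicate 3 the counts were 11 and 0 and the median was 1.01. CARS, the cysteine enzyme, measured 213, 235 and 194 CPM against 27.1, 23.6 and 25.6 CPM (log2 fold change 3.03, SE 0.21, adjusted p = 4.53e-06). AARS, the alanine enzyme, measured 555, 609.6 and 569 CPM against 69.1, 58.8 and 115 CPM (log2 fold change 2.796, adjusted p = 2.36e-05). The enzymes did not move as a block. DARS was at 198, 223 and 226 CPM against 192, 224 and 116 CPM, with overlap, and QARS and VARS had log2 fold changes of -0.88 and -0.80, past adjusted p and short of 2-fold. With the trend on GC content and length removed, 8 were called higher.

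The promoters of both groups were searched for the ATF4 element TGATGNAA, on both strands, in the 300 bases around the start of each gene in the RefSeq table of build GRCh38.p14. It was present in 1270 of 35116 promoters (3.62%), in 4 of 29 ATF4 targets with a promoter in the table and in 6 of 16 synthetases. Of the 11 synthetases called higher with a promoter in the table, 5 held it. A match is a description of letters and not a site of binding. Windows of up to 30 bases are shown for the genes with the element that differed most and for NARS1, the synthetase that held it and was not called. Each is written 5′ to 3′ on the strand of the gene, with the element, or its reverse complement, in capitals.
CHAC1: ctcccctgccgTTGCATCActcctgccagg
ASNS: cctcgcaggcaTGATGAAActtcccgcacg
CARS1: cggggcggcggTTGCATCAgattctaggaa
AARS1: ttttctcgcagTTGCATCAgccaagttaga
TARS1: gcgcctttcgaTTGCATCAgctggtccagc
MARS1: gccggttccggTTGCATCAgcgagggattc
NARS1: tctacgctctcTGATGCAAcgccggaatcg

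The first of these windows lies at chr15:40953251-40953280 and the second at chr7:97872458-97872487. The synthetase windows lie at chr11:3057407-3057436 for CARS1, chr16:70289675-70289704 for AARS1, chr5:33440956-33440985 for TARS1, chr12:57488053-57488082 for MARS1 and chr18:57621804-57621833 for NARS1, which the count table lists as CARS, AARS, TARS, MARS and NARS. NARS, the last of them, measured 214, 255 and 225 CPM against 135, 157 and 70.01 CPM, with a log2 fold change of 0.89 that was past adjusted p (0.0218) and short of 2-fold. ATF3, which was called lower, also held the element.

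Chemokines and NF-kappaB feedback genes were the next group. The chemokines attract neutrophils and lymphocytes, and both sets are induced through NF-kappaB. Of 16 tested members, 6 were called higher and 0 lower (median log2 fold change 0.89), and 9 and 0 without replicate 3 (median 1.18). The share called with all libraries was 37.5%, beside 22.9% of all genes. CCL20, a CC chemokine which attracts lymphocytes and dendritic cells, measured 32.4, 34.4 and 21.9 CPM against 4.58, 2.79 and 3.53 CPM (log2 fold change 2.98, SE 0.27, adjusted p = 2.16e-05). CXCL8, a CXC chemokine and the neutrophil attractant interleukin 8, measured 423, 453 and 408 CPM against 135, 127 and 75.1 CPM (log2 fold change 1.88, adjusted p = 0.000177). Both separated the groups. The inhibitors did not move with them: NFKBIA was at a log2 fold change of -0.80, short of 2-fold, and TNFAIP3 at 0.04 (adjusted p = 0.916).

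Of 23 tested interferon-stimulated genes, 10 were called higher and 1 lower (median 0.56), and 11 and 2 without replicate 3. In either direction 47.8% were called with all libraries, beside 22.9% of all genes. The members that rose included IFIT1, IFIT2, IFIT3 and IFIT5, which bind foreign RNA, and the RNA sensors DDX58 and IFIH1. IFIT5 measured 23.3, 25.8 and 27.9 CPM against 3.54, 2.58 and 2.02 CPM (log2 fold change 3.19, adjusted p = 1.08e-05). DDX58, the sensor RIG-I, measured 34.02, 44.4 and 39.6 CPM against 9.503, 9.86 and 6.04 CPM (log2 fold change 2.17, adjusted p = 7.54e-05). ISG15, a ubiquitin-like modifier, was at 172, 134 and 174 CPM against 237, 199 and 366 CPM, lower in the antisense libraries and short of 2-fold. BST2, an antiviral tether, was the member called lower (log2 fold change -1.396).

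Cholesterol synthesis enzymes varied within both groups of libraries. Of 25 members, 6 were called higher and 0 lower (median 0.38), and 9 and 0 without replicate 3 (median 0.86). HMGCS1, an early enzyme of the pathway, measured 178, 80.5 and 190.3 CPM against 92.5, 51.3 and 66.4 CPM. Antisense_hnRNPK replicate 2 was the lowest of its group and lay within the Ctrl_hnRNPK range. HMGCS1 was called with all libraries (log2 fold change 1.04, adjusted p = 0.0179) and not without Ctrl_hnRNPK replicate 3 (adjusted p = 0.104). SREBF2, the regulator of the pathway, measured 460.1, 351 and 450.1 CPM against 256, 181 and 517 CPM, where Ctrl_hnRNPK replicate 3 lay above, and replicates 1 and 2 below, every antisense library. FASN, the fatty acid synthase, measured 553, 246 and 567 CPM against 689.7, 479 and 1599 CPM, and its call as lower (adjusted p = 0.0488) was lost without that library (adjusted p = 0.373).

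**Figure D2:**
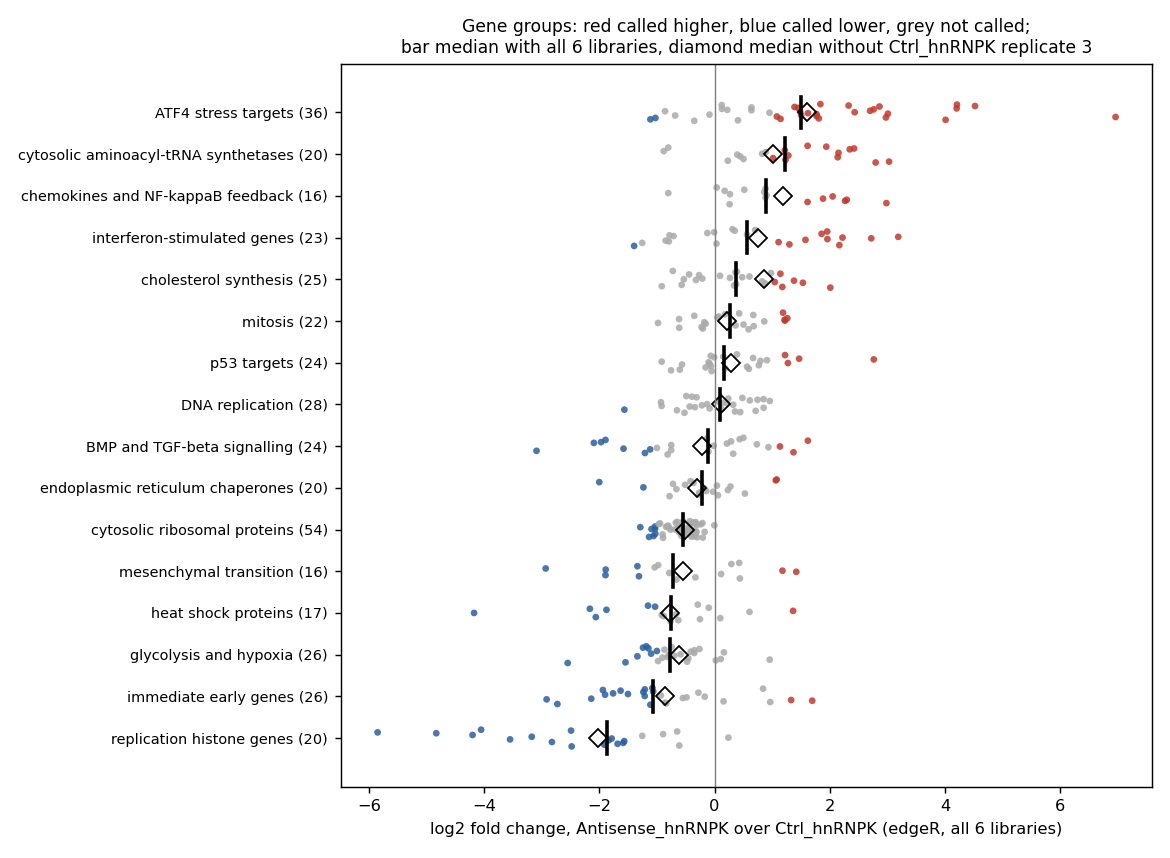
Log2 fold change of each tested member of 16 gene groups, with the number of members in parentheses; red points were called higher, blue points lower and grey points were not called. The black bar is the median with all 6 libraries and the open diamond the median without Ctrl_hnRNPK replicate 3, and the medians run from 1.495 for ATF4 targets to -1.87 for histone genes.

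Heat shock proteins, chaperones that HSF1 induces, were lower in part. The list holds cytosolic chaperones and the mitochondrial chaperonins HSPD1 and HSPE1. Of 17 tested members, 6 were called lower and 1 higher (median -0.76), and 7 and 1 without replicate 3. In either direction 41.2% were called with all libraries, beside 22.9% of all genes. HSPA1B, the inducible HSP70, measured 15.2, 11.9 and 20.8 CPM against 280.2, 379.5 and 174 CPM (log2 fold change -4.17, SE 0.33, adjusted p = 1.08e-05). This gene has a near-identical copy, HSPA1A, and unique mapping makes its level uncertain. DNAJB1, a cochaperone of HSP70, measured 108, 97.7 and 115 CPM against 403, 559 and 332 CPM (log2 fold change -2.06, adjusted p = 8.6e-05). HSPA8, the constitutive HSC70, measured 822, 603 and 968 CPM against 2979, 4032 and 1458 CPM, and Ctrl_hnRNPK replicate 3 lay nearest to the antisense libraries (log2 fold change -1.88, adjusted p = 0.000918). HSPA4L, a nucleotide exchange factor of HSP70, was the member called higher (1.36), and HSPD1 did not pass the test (-0.10). On FPKM with a pseudocount of 1, 4 members were called lower and the median was -0.37.

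The heat shock element, here the units GAA, TTC and GAA with 2 bases of any kind between neighbours, searched in the same way, was in 172 promoters (0.49%) and in 3 of 16 heat shock genes with a promoter in the table. Of those 3, HSPA8 was called lower and DNAJA1 and CHORDC1 were not called. The window farthest upstream of HSPA8, which held the element at 2 places, and one of DNAJA1 are shown, since the element stood both in a gene that was lower and in a gene that was not. The capitals mark the element on the strand of the gene.
HSPA8: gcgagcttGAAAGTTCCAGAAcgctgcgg
DNAJA1: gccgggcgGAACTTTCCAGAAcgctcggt

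These windows lie at chr11:123062346-123062374 and chr9:33025268-33025296. DNAJA1, a further cochaperone of HSP70, measured 119.9, 96.9 and 151 CPM against 119.9, 139.8 and 71.6 CPM, with overlap.

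SNORD14C, SNORD14D and SNORD14E, small nucleolar RNAs encoded in introns of HSPA8, were among the 8 lowest log2 fold changes. SNORD14E (chromosome 11, 123058077 to 123058161) measured 0, 0.0648 and 0.03896 CPM against 12.1, 13.2 and 3.93 CPM. From summed reads it was 279-fold higher in Ctrl_hnRNPK (95% counting interval 95.2 to 1358), with 3 reads in the antisense group. SNORD14C was 198-fold higher there (67.4 to 965) and SNORD14D 154-fold (59.6 to 566). Replicate 3 had the lowest values of its group for all 3, and without it the ratios were 350.2-fold (119 to 1703), 258-fold (87.7 to 1255) and 195-fold (75.7 to 719) in the same order. The intervals cover counting error only, and reads of the HSPA8 introns cannot be told apart from reads of these RNAs. Over every entry annotated as a small nucleolar RNA, 40 of 51 tested were called lower and 0 higher. A list of them, added after the values were seen, kept the entry with the highest mean for each name. In this list 38 of 49 tested were called lower and 0 higher (median -2.31), and 55 of 73 and 0 without replicate 3. The share of the list called with all libraries was 77.6%, beside 22.9% of all genes. With the trend on GC content and length removed, 22 were called lower and 3 higher, and the median was -1.002. The noncoding host genes of such RNAs had 2 of 15 called lower, SNHG3 at -1.35 and DANCR at -1.09, the latter not called without replicate 3, where SNHG4 was called lower in its place. With all libraries 13.3% of the host genes were called lower, beside 11.1% of all genes. None of the host genes was called on FPKM with a pseudocount of 1.

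In the endoplasmic reticulum, chaperones did not move together. Of 20 members, 2 were called higher and 2 lower, and 1 and 2 without replicate 3, and the median of -0.22 turned positive on FPKM. With all libraries the share called in either direction was below the 22.9% of all genes, so these counts do not set the group apart. HSPA5 and XBP1 are therefore described as single genes. HSPA5, the chaperone BiP, measured 2006, 1833 and 2140 CPM against 4999, 5171 and 3445 CPM (log2 fold change -1.24, adjusted p = 0.00093). XBP1, a regulator of the unfolded protein response, measured 93.04, 101 and 93.5 CPM against 36.6, 34.9 and 61.3 CPM and was called higher (log2 fold change 1.08, adjusted p = 0.00341).

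Immediate early genes were lower in part. They encode transcription factors and phosphatases that respond within minutes to growth factors and stress. Of 26 members, 14 were called lower and 2 higher (median -1.07), and 11 and 4 without replicate 3 (median -0.86). In either direction 61.5% were called with all libraries, beside 22.9% of all genes. FOS measured 9.59, 10.1 and 9.66 CPM against 80.2, 94.4 and 39.04 CPM (log2 fold change -2.92, SE 0.30, adjusted p = 4.34e-05). DUSP1, a phosphatase that switches off MAP kinases, measured 95.2, 66.5 and 99.3 CPM against 556, 499 and 620.5 CPM (log2 fold change -2.73, adjusted p = 1.43e-05). Every antisense library lay below every empty vector library for both. MYC, a driver of growth, measured 261, 216 and 320 CPM against 805, 658 and 932 CPM (log2 fold change -1.63, adjusted p = 0.000207). JUN differed by -1.9 and KLF4 by -1.24 on the log2 scale. EGR1, a zinc finger factor of the same class, did not pass the test (69.9, 60.9 and 71.2 CPM against 52.1, 33.8 and 90.8 CPM), and EGR2 and EGR3 were the members called higher, at 0.0404 to 2.31 CPM over all libraries. On FPKM with a pseudocount of 1, 8 members were called lower.

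CYR61 and CTGF, secreted matrix proteins that the coactivator YAP induces, showed the largest differences among YAP and TEAD targets, a list added after the values were seen. CYR61 measured 38.5, 24.1 and 45.4 CPM against 594, 488 and 573 CPM (log2 fold change -3.98, SE 0.27, adjusted p = 4.07e-06). CTGF measured 4.43, 4.12 and 6.702 CPM against 44.8, 32.7 and 48.4 CPM (log2 fold change -3.09, adjusted p = 1.43e-05). Of 13 tested targets, LATS2 and WTIP were the other members called lower (-1.05 and -1.15), and F3, the tissue factor of clotting, was called higher (1.15). Neither LATS2 nor WTIP was called without replicate 3, where the counts were 2 lower and 1 higher, and the receptor kinase AXL was not called in either fit (-0.19). With FPKM and a pseudocount of 1, 2 were called lower and 1 higher, and the median of -0.34 turned positive. On counts with all libraries 38.5% of the targets were called, beside 22.9% of all genes.

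**Figure D3:**
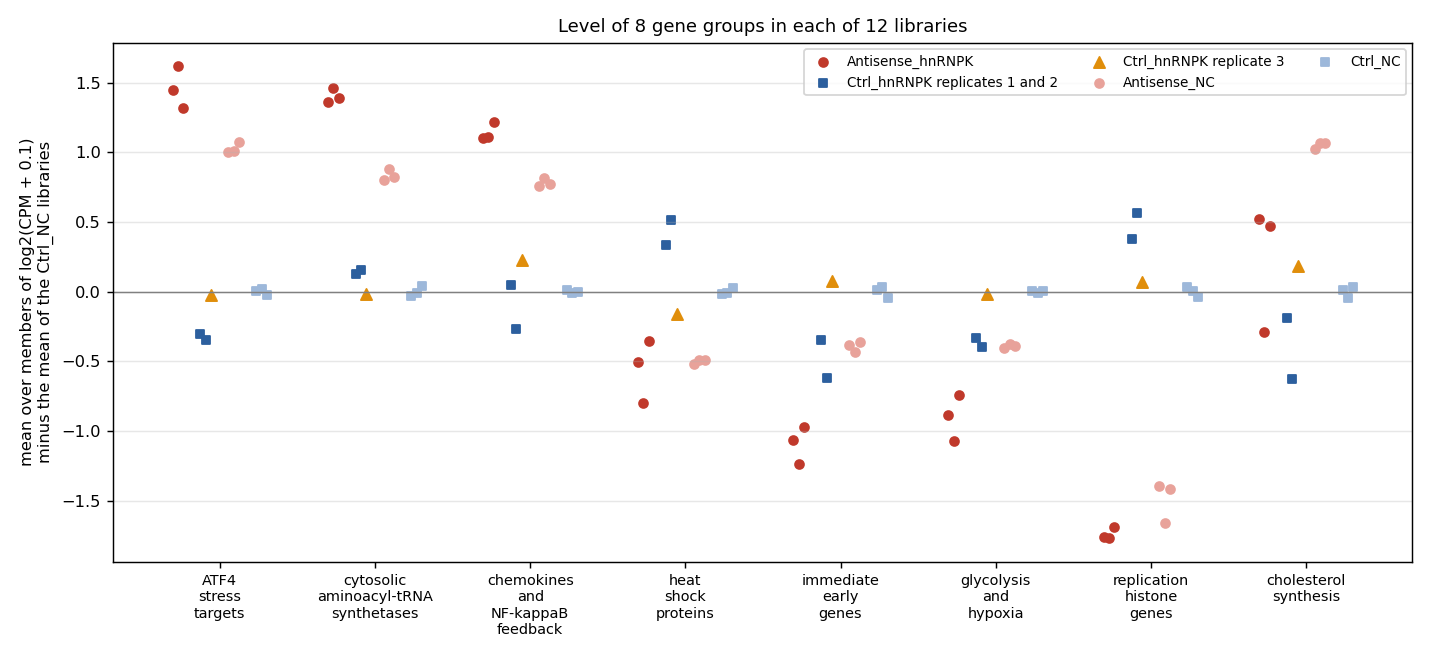
Mean over the tested members of log2(CPM + 0.1) minus the mean of the Ctrl_NC libraries, for 8 gene groups and 12 libraries; points of the hnRNPK groups are dark, those of the NC groups light, and the triangle is Ctrl_hnRNPK replicate 3. The 3 Antisense_hnRNPK libraries lie above or below all Ctrl_hnRNPK libraries in every group but cholesterol synthesis, where Antisense_hnRNPK replicate 2 lies at -0.29 and the Ctrl_hnRNPK libraries at -0.62 to 0.18.

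Glycolysis and hypoxia genes were lower in part. Of 26 members, 8 were called lower and 0 higher (median -0.77), and 5 and 1 without replicate 3 (median -0.62). The share called with all libraries was 30.8%, all of it lower. Over all genes 22.9% were called, 11.8% of them higher and 11.1% lower. ADM, the vasodilator adrenomedullin and a hypoxia target, measured 348, 226 and 453 CPM against 1878, 1787 and 2154 CPM (log2 fold change -2.55, SE 0.26, adjusted p = 3.48e-05). ALDOA, a glycolytic aldolase, measured 4590, 3745 and 5526 CPM against 10250, 9594 and 19500 CPM, and replicate 3 carried the highest value (log2 fold change -1.55, and -1.14 without that library). SLC2A1, the glucose carrier GLUT1, was called lower with all libraries (-1.24) and not without replicate 3 (-0.95, short of 2-fold). On FPKM with a pseudocount of 1, 2 members were called lower and 1 higher, and with the GC and length trend removed 7 and 1.

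In BMP and TGF-beta signalling the ligands TGFB1 and BMP7 and the inhibitory SMADs SMAD6 and SMAD7 were lower, while a receptor, an intracellular mediator and a ubiquitin ligase were higher. Of 24 tested members, 7 were called lower and 3 higher, and 6 and 3 without replicate 3. In either direction 41.7% were called with all libraries, beside 22.9% of all genes. On FPKM with a pseudocount of 1, 3 were called lower and 2 higher, and the median of -0.12 turned positive. TGFB1 measured 66.1, 57.8 and 74.4 CPM against 176, 178 and 362 CPM, with replicate 3 the highest library (log2 fold change -1.89, adjusted p = 0.00035). BMP7 measured 7.58, 6.06 and 9.59 CPM against 13.9, 15.3 and 22.8 CPM (log2 fold change -1.21) and was not called without replicate 3 (-0.96). The receptor BMPR1A rose by 1.37 and the mediator SMAD1 by 1.14. SMAD7, an inhibitor of both pathways, measured 2.99, 2.88 and 2.77 CPM against 11.2, 11.6 and 10.02 CPM (log2 fold change -1.97, adjusted p = 8.27e-05). SMURF2, a ubiquitin ligase that removes receptors and SMADs, measured 256, 291 and 296 CPM against 106, 90.2 and 69.3 CPM (log2 fold change 1.62, adjusted p = 0.000225). The study named SMAD6, BMP7, SMURF2 and BBC3 for sense CRLM1 acting with hnRNPK, and followed them by qRT-PCR, western blot and hnRNPK knockdown. It reported SMAD6, BMP7 and BBC3 lower and SMURF2 higher. The sequencing comparisons it gave for them used CRLM1 and Ctrl libraries with and without the construct, and no antisense library. They share Ctrl_hnRNPK libraries with this comparison, so the directions here are not independent evidence. The study also reported FOS, and SNAI1, FOXF1, GALNT3 and HMOX1 of the next group, as raised by overexpression of sense CRLM1, in RNA-seq and qRT-PCR. In this comparison, which is of the antisense background, FOS and SNAI1 were lower and GALNT3 and HMOX1 higher. Whether the study's values were from the same libraries is not given in the sources used here. The apoptosis activator BBC3 did not pass the test (-0.60, adjusted p = 0.101).

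Of 16 tested genes of mesenchymal transition, 5 were called lower and 2 higher in both fits (median -0.72 and, without replicate 3, -0.54). In either direction 43.8% were called with all libraries, beside 22.9% of all genes. Calls on FPKM with a pseudocount of 1 were 2 higher and 1 lower. SNAI1, a repressor of CDH1, measured 5.87, 3.596 and 6.97 CPM against 16.9, 14.7 and 27.4 CPM (log2 fold change -1.89, adjusted p = 0.000461). FN1, which encodes fibronectin, measured 10.2, 8.68 and 10.3 CPM against 23.6, 22.8 and 23.9 CPM (log2 fold change -1.31, adjusted p = 0.000369). CDH1, the epithelial cadherin, had a log2 fold change of 0.44 that did not pass the test. GALNT3, an enzyme of mucin glycosylation, and HMOX1, the haem oxygenase, were the members called higher (1.42 and 1.18). Both are enzymes and not transition factors. The study plotted GALNT3 among genes related to the transition and HMOX1 apart from them. Among matrix proteases and their inhibitors, 3 of 15 were called lower and 2 higher, and 2 and 2 without replicate 3, with the protease inhibitor TIMP2 at 46.8, 40.8 and 56.2 CPM against 136, 154 and 187 CPM and the sheddase ADAM17 at 101, 103 and 98.8 CPM against 42.2, 32.7 and 24.4 CPM. The share of these 15 called with all libraries was 33.3%, beside 22.9% of all genes.

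Replication-dependent histone genes were lower in every case that was called. This list too was added after the values were seen, and whether RNA was selected by poly(A) tail, which most of these transcripts lack, is not given in the sources used here. Of 20 tested members, 15 were called lower and 0 higher (median -1.87), and 17 of 22 and 0 without replicate 3. HIST2H2BE measured 1.44, 1.33 and 2.92 CPM against 59.5, 54.2 and 42.2 CPM (log2 fold change -4.83, SE 0.32, adjusted p = 4.07e-06). HIST1H1C, a linker histone, measured 14.8, 12.1 and 16.8 CPM against 72.8, 91.7 and 71.5 CPM (log2 fold change -2.48, adjusted p = 1.84e-05). Histone genes have near-identical copies, so their unique counts are uncertain. On FPKM with a pseudocount of 1, 9 were called lower. Of 28 genes of DNA replication, 1 was called lower, the regulator E2F1 (-1.56), and 0 higher, and without replicate 3 there were 2 lower and 1 higher. The share called with all libraries was 3.57%, beside 22.9% of all genes.

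Zinc finger genes on chromosome 19, mostly KRAB repressors and also listed after their values were seen, were called higher in 74 of 152 cases and lower in 3 (median 1.03), and in 77 and 2 of 154 without replicate 3. In either direction 50.7% were called with all libraries, beside 22.9% of all genes. With the trend on GC content and length removed, 64 were called higher, and on FPKM with a pseudocount of 1, 19. Cytosolic ribosomal protein genes were called lower in 7 of 54 cases and higher in 0 (median -0.54), and 0 were called in either direction without replicate 3. In edgeR's fit without that library 44 of them were past adjusted p and lower (25.5% of all genes were), each short of 2-fold, and on FPKM with a pseudocount of 1, 0 were called. RPL13, a protein of the large subunit, measured 900.4, 753 and 804 CPM against 1391, 1439 and 2423 CPM, and replicate 3 was the highest library. It was among the members called with all libraries. Of 22 mitotic genes, 4 motor and kinetochore genes were called higher in both fits, KIF11, KIF23, CENPF and the kinase TTK, with log2 fold changes of 1.22, 1.26, 1.22 and 1.19, and with the GC and length trend removed 0 were called. Of 24 tested p53 targets, 4 were called higher, among them MDM2 (1.27), the ubiquitin ligase of p53, and 0 lower, and 5 and 0 without replicate 3 and 7 and 0 on FPKM with a pseudocount of 1, while CDKN1A, the cell cycle inhibitor p21, was at -0.15 (adjusted p = 0.658). Mitochondrially encoded proteins did not move as a block: MT-ND3, a subunit of complex I, measured 819, 781 and 758 CPM against 173, 144 and 323 CPM (log2 fold change 1.84), and MT-CYB, of complex III, measured 838, 992 and 959 CPM against 1725, 1870 and 2224 CPM (log2 fold change -1.103, not called without replicate 3). Nuclear-encoded respiratory chain subunits had 1 of 75 called higher and 4 lower, and 1 and 2 without replicate 3. Mitochondrial ribosomal proteins had 6 of 77 called higher and 1 lower, and 8 and 0 without replicate 3, while on FPKM with a pseudocount of 1, 17 were called higher and 0 lower. Both lists were made after their values were seen. In either direction, 16.7% of p53 targets, 18.2% of mitotic genes and 13.0% of cytosolic ribosomal protein genes were called with all libraries. For respiratory chain subunits the share was 6.67% and for mitochondrial ribosomal proteins 9.09%. Over all genes it was 22.9%, with 11.8% higher and 11.1% lower.

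Beyond the gene groups, called genes with at least 1 CPM on average and no overlap between Antisense_hnRNPK and Ctrl_hnRNPK were ranked. XIST and genes of chromosome Y were left out of this ranking. The 8 highest log2 fold changes were those of LINC01767, CHAC1, TNFSF18, HPS6, SLC7A11, TRIB3, SLC1A4 and SPX. TNFSF18, the ligand of the receptor GITR, measured 3.41, 4.79 and 2.18 CPM against 0.0864, 0.0404 and 0 CPM, 80.1-fold higher by summed reads (95% counting interval 27.1 to 391, 3 reads in the empty vector group), and 56.6-fold (19.2 to 276) without replicate 3. HPS6, a subunit of a complex of lysosome-related organelles, measured 13.8, 21.6 and 9.66 CPM against 0.173, 0.283 and 1.46 CPM (log2 fold change 4.58, and 5.99 without replicate 3). Besides the SNORD14 genes, the lowest were HIST2H2BF, HIST2H2BE, HIST2H2AA4 and the sense intronic transcripts RP11-510N19.5 and RP11-429D19.1. RP11-510N19.5 measured 0.151, 0.162 and 0.156 CPM against 6.004, 7.998 and 2.82 CPM. Sense intronic transcripts lie within another gene, and their reads cannot be told apart from intronic reads of that gene. Of 102 of them tested, 48 (47.1%) were called lower and 3 (2.94%) higher. Over all genes 11.1% were called lower and 11.8% higher.

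The place of Ctrl_hnRNPK replicate 3 differed from gene to gene. For the 2609 genes that were called without it and had at least 1 CPM on average, its log2 level was placed on the way from the mean of Ctrl_hnRNPK replicates 1 and 2, set to 0, to the antisense mean, set to 1. The median position was 0.003, with quartiles of -0.341 and 0.369. It lay beyond replicates 1 and 2 on the side of the antisense libraries in 1118 genes, on the other side in 1113 and between them in 378, and it reached the antisense range in 198. Genes called only without it were chosen by those calls, so the following examples describe that choice and not the genes at large. INPP5D, a lipid phosphatase, measured 1.67, 1.39 and 1.52 CPM in Antisense_hnRNPK, 0.216 and 0.202 CPM in replicates 1 and 2 and 2.22 CPM in replicate 3. ZNF408 measured 7.39, 7.096 and 7.01 CPM, 1.73 and 2.22 CPM and 6.85 CPM in the same order. Among genes called lower only without it, ABCG2, a drug efflux pump, measured 1.14, 0.583 and 1.403 CPM, 2.42 and 3.23 CPM and 1.01 CPM, and TRIM66 5.304, 7.78 and 4.44 CPM, 14.04 and 17.4 CPM and 4.23 CPM. In these genes replicate 3 lay close to, within or beyond the antisense range, while replicates 1 and 2 lay apart from it.

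The same backgrounds without the construct served to show where the hnRNPK libraries differed. Antisense_NC against Ctrl_NC called 2033 of 14389 genes (14.1%), 1035 (7.19%) higher and 998 (6.94%) lower. Of the genes called with the construct, 1509 were also called without it in the same direction, 44.3% of the first set and 74.2% of the second, and 0 in the opposite direction. Without replicate 3 the overlap was 1564 genes, 46.7% and 76.9%. Across 14207 genes tested in both, the log2 fold changes correlated at 0.861 (Pearson), and at 0.871 across 14284 genes without replicate 3. These are descriptions across genes, which are not independent replicates.

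**Figure D4:**
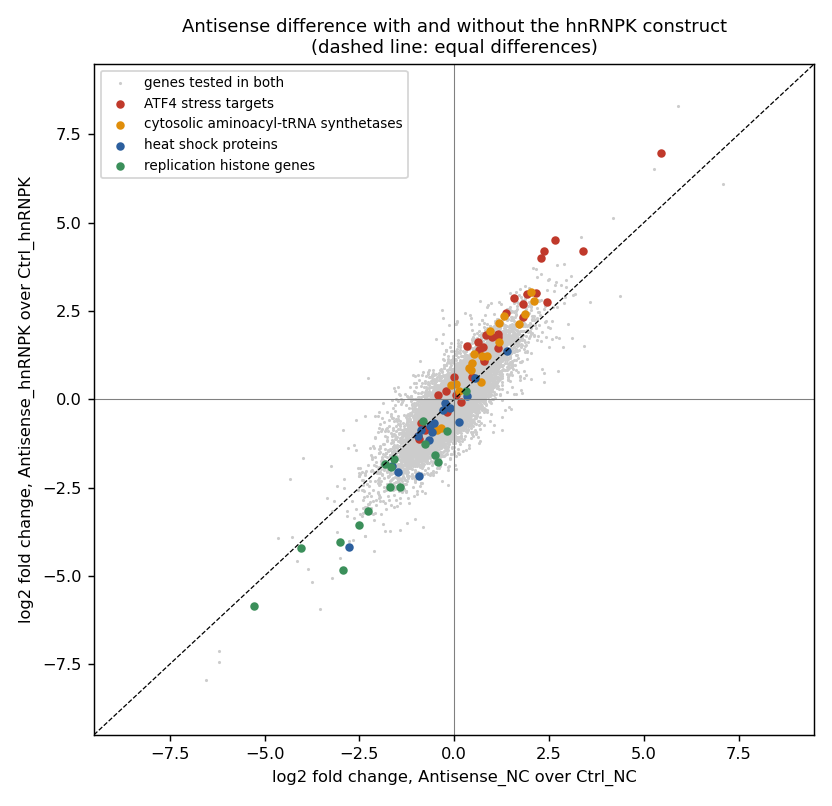
Log2 fold change of antisense over empty vector with the hnRNPK construct (vertical axis) against the same without it (horizontal axis), with 1 point per gene tested in both and 4 groups in colour; the dashed line marks equal differences and LINC01767 is left out, being at 0 counts in the empty vector libraries. ATF4 targets lie mostly above the line, such as SLC7A11 at 4.52 with the construct and 2.66 without, and HIST2H2BE lies below it at -4.83 and -2.92.

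Whether the antisense difference itself differed between hnRNPK and NC libraries was tested by the interaction term. With all 12 libraries, edgeR called 0 of 15346 genes, with 2179 at an unadjusted p under 0.05 and a smallest adjusted p of 0.0652. On the same libraries DESeq2 called 126 and limma-voom with quality weights 238. Without Ctrl_hnRNPK replicate 3, edgeR called 158 of 15743 genes (1.00%), 84 higher (0.534%) and 74 lower (0.470%), and 1042 were past adjusted p. In that fit ATF4 targets had 24 of 36 members past adjusted p and higher, meaning a more positive antisense difference with the construct, and 0 lower, beside 2.85% and 3.77% of all genes, with a median difference of 0.74 against -0.04. SLC7A11 was at 1.65 (adjusted p = 0.0024), TRIB3 at 1.44 (adjusted p = 0.00696) and CHAC1 at 2.28 (adjusted p = 0.00548). Synthetases had 8 of 20 past adjusted p and higher, chemokines and NF-kappaB feedback genes 6 of 16, and heat shock proteins 6 of 18 past adjusted p and lower, each with 0 in the other direction. Mitochondrially encoded proteins had 1 of 13 past adjusted p and higher and 6 lower, with a median difference of -0.43. Cholesterol synthesis genes had 0 of 25 past adjusted p in either direction. MMP1, an interstitial collagenase, measured 2.61, 6.16 and 2.03 CPM against 2.77, 1.94 and 2.22 CPM with the construct and 0.548 CPM against 2.52 CPM without it. It was called lower in Antisense_NC (log2 fold change -2.26) and did not pass the test with the construct (0.61, adjusted p = 0.236), and the difference between these was 2.804 (adjusted p = 0.00743). These interaction calls rest on leaving out 1 library, and the 0 calls with all libraries stand beside them.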

How the data were processed

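RNA of HCT116 cells was sequenced in 18 libraries of 6 groups with 3 libraries each. The authors trimmed reads with the FASTX-Toolkit, aligned them to GRCh38 with TopHat2 and a Gencode annotation, and counted uniquely mapped reads per gene. They deposited raw counts and FPKM for each library, FPKM being counts scaled to exon length and library size. The strand used for counting is not given in the sources used here. No column of per-sample values was left unused.

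Groups were taken from the labels. Counts were tested with edgeR 4.0.16 in R 4.3.3 by the two-sided quasi-likelihood test with robust fitting, TMM scaling and the filterByExpr filter, on the 6 libraries of a comparison. P-values were adjusted by Benjamini-Hochberg over all genes tested, and a gene was called at an adjusted p of at most 0.05 and a fold of at least 2. Every adjusted p in the text comes from this test. The antisense difference was compared between hnRNPK and NC libraries by an interaction term over 12 libraries. CPM are scaled by TMM over all 18 libraries, so their ratio can differ from the fitted fold change. Total counts of 22089254 to 24457199 set the precision, and intervals and floors cover counting error only.

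Alternatives were other size factors, no low-count filter, DESeq2 1.42.0, limma 3.58.1 on log2(FPKM + 1) or log2(FPKM + 0.1) and with voom quality weights, a fit of all 6 groups, a replicate block, removal of each library's loess trend (span 0.3) on GC content and length, and each library left out in turn. The FPKM fits had no TMM scaling. Steps were tested on simulated counts.

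The members, gene lists and tests were chosen with earlier results of these data known. Named genes were HNRNPK, LINC01767, PLPP3 and genes of the lists, 8 called genes from each end of the fold changes, if their mean reached 1 CPM and the groups lay apart, the 6 highest and 6 lowest of those called only without Ctrl_hnRNPK replicate 3, and the 4 highest and 4 lowest called in the interaction. XIST and genes of chromosome Y were left out of these choices. Among list members, those described were picked for their role after their values were seen. The lists of YAP and TEAD targets, histone genes, chromosome 19 zinc finger genes, small nucleolar RNAs, respiratory chain subunits and mitochondrial ribosomal proteins were added after values were seen. Gene positions come from the Gencode annotation of GRCh38, and promoter sequences from RefSeq.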

Additional observations from a re-analysis of the deposited data

Results flagged for a closer look

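A difference between the hnRNPK and NC libraries in the size of the antisense effect marked 8 genes, all in edgeR's interaction test without Ctrl_hnRNPK replicate 3. The same test with all 12 libraries called 0 of 15346 genes. MMP1, a collagenase, differed by 2.80 on the log2 scale (adjusted p = 0.00743), and its highest Antisense_hnRNPK library was replicate 2, with 6.16 CPM against 2.61 and 2.03 CPM. HPS6 differed by 2.56 (adjusted p = 0.0232), HKDC1, a hexokinase, by 2.41 (adjusted p = 0.00261) and DHRS2, a dicarbonyl reductase, by 2.37 (adjusted p = 0.00937). Antisense_hnRNPK replicate 2 was the highest library of its group in all 4. Among the genes with a lower value under the construct, RP11-429D19.1 differed by -2.42 (adjusted p = 0.00724), RP11-84A19.4 by -2.24 (adjusted p = 0.00634), HIST2H2BE by -2.10 (adjusted p = 0.000164) and RP3-395M20.12 by -1.996 (adjusted p = 0.00696). RP11-84A19.4, a long noncoding RNA, measured 4.02 and 5.53 CPM in Ctrl_hnRNPK replicates 1 and 2 and 0.856 CPM in replicate 3, against 0.455, 0.421 and 0.545 CPM in Antisense_hnRNPK.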

How the results depend on the processing

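With all 6 libraries 3403 genes were called, and the count stayed within 1.5 times of this, between 2505 (GC and length trend removed) and 3857 (no low-count filter), except on log2(FPKM + 1), with 1878 with the filter and 1862 without it. Leaving out each library in turn gave 2900 to 3649. For the NC libraries the count of 2033 became 595 and 620 in the same 2 FPKM settings and lay between 2069 and 2181 with each library left out. The interaction test of edgeR, with 0 calls, gave 201 without the low-count filter, 126 with DESeq2, 238 with voom quality weights, 37 on log2(FPKM + 1), 5 on that scale without a filter, 2 in the single fit of all groups, 54 with the GC and length trend removed and 382 without the third libraries of both hnRNPK groups. Leaving out libraries in turn gave 0 to 158, with 33 without Antisense_hnRNPK replicate 3, 63 without Ctrl_hnRNPK replicate 2 and 158 without Ctrl_hnRNPK replicate 3. The cause was not tested.

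No pairing by replicate number was seen. Deviations of same-numbered libraries correlated at -0.16, 0.09 and -0.122 with the construct and at 0, -0.019 and -0.016 without it. Differently numbered libraries lay between -0.155 and 0.202 with the construct. Since Ctrl_hnRNPK replicate 3 stood apart and shifts the mean of its group, this check cannot decide on pairing there. With the replicate block 3447 genes were called with the construct, 2028 without it and 2 in the interaction.

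For 128 genes, values kept direction and call in 1917 cases, lost the call in 144, gained it in 114 and reversed in 0. These do not include every gene named in the text, and BMP7, LATS2 and WTIP are among those left out. Counts of called list members stayed within 1.5 times in 451 cases and moved further in 93. FASN lost its call in 13 of 17 settings, CD68 in 12, CEBPB in 10 and HMGCS1 in 8. The signs of the medians of ER chaperones, BMP and TGF-beta genes, poly(C)-binding paralogs, snoRNA host genes, proteases, YAP and TEAD targets, respiratory chain subunits and mitochondrially encoded proteins turned on FPKM, the last also without Ctrl_hnRNPK replicate 3, with voom quality weights and with the GC trend removed, that of fatty acid synthesis with the GC trend removed and that of colon markers without a filter.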
